A study of Mus musculus with 33 samples.

Results

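The chromatin states of mouse embryonic stem (mES) cells were set beside those of the forebrain of E11.5 mouse embryos. The units compared are bins of 10 kb on chromosomes 1 to 19 that stand in a deposited list of both sources, found by painting the 3 lists of each source (LAD, KOD and open) along the chromosomes. These were 210464 bins, or 2104.64 Mb, of the 240055 bins and 2400.55 Mb between the first and last listed bin of each chromosome. Bins that stood in no list of a source were kept apart.

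CUT&RUN, in which an antibody guides a nuclease to cut the chromatin it binds, was made with antibodies to H3K9me2 and to Lamin B1. The comparison draws on 12 of the 33 libraries of the series, 3 for each antibody in each source, beside 3 IgG control libraries from mES cells and 6 from forebrain. The mES cells are a C57BL/6 line from ATCC, started on gelatin with inactivated mouse fibroblasts and then moved to medium with LIF and the inhibitors PD0325901 and CHIR99021, which block MEK and GSK3. The forebrain samples are right forebrain lobes of wild-type C57BL/6 embryos, dissociated to single cells. The 3 replicates of a source were separate culture vessels of the line or separate pooled litters, and the labels name no transgene, deletion or other treatment for either source. Some genes are also given their state in the heart of wild-type C57BL/6 embryos of E11.5, whose whole hearts were pooled by litter and which has its own 3 pooled lists. Heart and forebrain were both set against the same mES map.

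The nuclear lamina is a protein mesh under the nuclear envelope, and lamina-associated domains (LADs) are long stretches of chromatin that touch it, in general poor in active genes. H3K9me2, dimethylation of histone H3 at lysine 9, is laid down by the methyltransferases G9a and GLP, marks repressed chromatin and is abundant at the nuclear periphery. KOD is the depositors' label for a further class of domain, which nothing used here spells out, and open is the remaining class. In early development genes of the pluripotent state are silenced and genes of neurons are switched on in steps, and movement toward or away from the lamina is known to accompany some of these switches.

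Each source has 1 map that pools its replicates and carries no score. The depth behind a bin is therefore unknown, no value below has a replicate error, and no difference was tested. A lobe holds progenitors, young neurons, vessels, blood and meninges, and in a pooled list a switch in some cells and a switch in all cells cannot be told apart. RNA was not measured, so a state does not say whether a gene was active.

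The promoters of 4 genes are printed as examples of single genes that changed state, and they do not stand for all genes that made the same change. Each line gives the 250 bases before and 50 bases after a start of transcription in RefSeq's annotation of GRCm38.p6, the assembly behind mm10, read 5′ to 3′ on the strand of the gene, with every CG dinucleotide in capitals. Map2 and Zfp42 were picked by the rule for named genes, and Vmn1r244 and H2bc13 were picked after the values were seen, as examples of the gene arrays described further on.
Map2, LAD in mES cells, then open in forebrain, chr1:66175079-66175378, plus strand: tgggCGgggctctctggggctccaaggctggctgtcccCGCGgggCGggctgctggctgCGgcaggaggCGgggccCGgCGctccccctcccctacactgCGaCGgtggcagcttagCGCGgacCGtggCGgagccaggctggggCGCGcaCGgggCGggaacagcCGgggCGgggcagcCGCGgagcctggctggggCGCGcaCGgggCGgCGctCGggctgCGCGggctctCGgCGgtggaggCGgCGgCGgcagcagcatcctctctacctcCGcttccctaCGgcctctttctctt
Zfp42, open in mES cells and LAD in forebrain, chr8:43306960-43307259, minus strand: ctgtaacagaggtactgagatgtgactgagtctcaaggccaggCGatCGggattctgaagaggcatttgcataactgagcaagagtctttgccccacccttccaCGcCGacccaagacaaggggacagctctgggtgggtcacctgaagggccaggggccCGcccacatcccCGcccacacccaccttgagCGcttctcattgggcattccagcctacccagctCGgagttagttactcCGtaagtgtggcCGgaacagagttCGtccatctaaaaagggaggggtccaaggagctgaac
Vmn1r244, LAD in mES cells, then open in forebrain, chr7:20375361-20375660, minus strand: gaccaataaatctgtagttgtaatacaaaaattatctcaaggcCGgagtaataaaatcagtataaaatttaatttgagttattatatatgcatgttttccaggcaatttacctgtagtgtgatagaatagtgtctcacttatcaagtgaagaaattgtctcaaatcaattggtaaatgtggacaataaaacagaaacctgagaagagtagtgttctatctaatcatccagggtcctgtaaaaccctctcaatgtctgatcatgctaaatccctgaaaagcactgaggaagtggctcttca
H2bc13, open in mES cells and KOD in forebrain, chr13:21716134-21716433, minus strand: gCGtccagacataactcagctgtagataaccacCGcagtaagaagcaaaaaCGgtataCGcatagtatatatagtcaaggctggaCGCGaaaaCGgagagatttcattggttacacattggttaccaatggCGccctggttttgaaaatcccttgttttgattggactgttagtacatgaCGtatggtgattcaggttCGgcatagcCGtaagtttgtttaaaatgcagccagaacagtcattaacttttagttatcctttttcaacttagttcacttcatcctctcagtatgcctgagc
The Map2 window holds 37 CG dinucleotides, 0.827 of the number its base composition would give. The Zfp42 window holds 11, a ratio of 0.441. The Vmn1r244 window holds 1, a ratio of 0.113, and all of its words of 31 bases recur in the window of another gene. The H2bc13 window holds 11 at a low GC content of 41.7%, a ratio of 0.845. For comparison, the median ratio was 0.132 over the windows of all LAD to open genes, and the median GC content was 59% over those of all open to KOD genes. Dppa2, the next gene the rule picked, has no entry in the promoter table.

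Several microRNA genes also changed state, and their mature sequences are shown with the seed, bases 2 to 8, in capitals. They were chosen after the states were seen.
miR-137-3p, Mir137, LAD to open: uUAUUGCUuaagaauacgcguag
miR-181a-5p, Mir181a-1, LAD to open: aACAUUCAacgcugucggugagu
miR-181b-5p, Mir181b-1, LAD to open: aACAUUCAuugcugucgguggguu
miR-99a-5p, Mir99a, LAD to KOD: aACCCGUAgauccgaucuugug
let-7c-5p, Mirlet7c-1, LAD to KOD: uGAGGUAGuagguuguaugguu
miR-135a-5p, Mir135a-2, LAD to KOD: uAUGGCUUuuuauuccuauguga
let-7a-5p, Mirlet7a-1, open to KOD: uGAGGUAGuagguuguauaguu
miR-9-5p, Mir9-1, open to KOD: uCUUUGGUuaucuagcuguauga
miR-181a-5p and miR-181b-5p share the seed ACAUUCA, and let-7a-5p and let-7c-5p share GAGGUAG.

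From mES cells to forebrain, 404.49 Mb of the 2104.64 Mb listed in both sources carried another state, which is 19.2% of the bins. LADs kept their state most often and KODs least. Of the bases that were LAD in mES cells and listed in forebrain, 92.8% were LAD again (932.24 Mb), against 76.8% for open chromatin (539.13 Mb) and 57.4% for KODs (228.78 Mb). Of all changed bases, 67.9% lay in swaps of KOD and open, and 14.1% in swaps of LAD and open.

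The exchanges nearly balanced in length where open chromatin was involved. KOD to open took 140.49 Mb and open to KOD 134.35 Mb. LAD to open took 28.45 Mb and open to LAD 28.41 Mb. This second balance rests on chromosome 7, which held 14.34 Mb of LAD to open and 0.24 Mb of open to LAD. Without it 14.11 Mb of LAD to open were left, less than the open to LAD of the other chromosomes. With all chromosomes counted, the gap between directions was widest for LAD and KOD. It had 43.55 Mb from LAD to KOD and 29.24 Mb from KOD to LAD. The cover of each state over the whole span was 1045.8 and 1056.85 Mb of LAD, 421.09 and 412.92 Mb of KOD, and 761.69 and 745.9 Mb of open chromatin in mES cells and forebrain. These differences do not follow from the exchanges, because they also count bins listed in 1 source only. Such bins brought 66.96 Mb to the LADs of forebrain and took away 41.56 Mb that was LAD and 59.8 Mb that was open in mES cells.

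**Figure D1:**
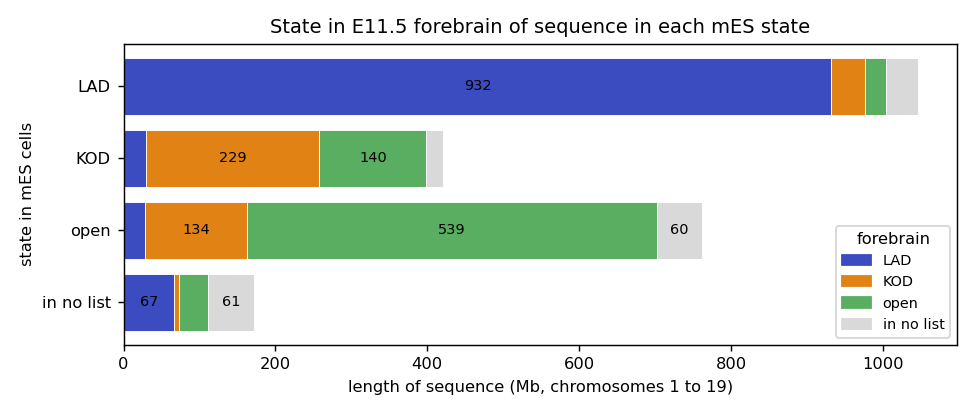
Length of sequence in Mb (horizontal axis) in each mES state (rows), split by the state of the same bins in forebrain (colours). The LAD row is nearly all 1 colour, with 932.24 Mb again LAD, while the KOD row holds 228.78 Mb of KOD beside 140.49 Mb of open chromatin.

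The switched bases lay in 6306 runs of bins with 1 kind of exchange, with a median length of 30 kb. Single bins made up 25.4% of the runs, but runs of 100 kb or more held 60.1% of the switched bases and 38 runs reached 500 kb. LAD to KOD had the largest share of its bases in runs of 100 kb or more, 72.8%, and open to LAD the lowest, 39.8%. Of the 38 longest runs, 12 were LAD to KOD and 8 LAD to open, while 1 was KOD to LAD and 2 were open to LAD.

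New KODs and lost KODs differed in how they sat among their neighbours. Of the bases that went from open to KOD, 46.2% were a border shift, a run between a bin that was KOD in both sources and a bin that was open in both. A further 35.1% were new islands inside chromatin that was open in both, and 12.6% filled an open island inside a KOD. Of the bases that went from KOD to open, 30.6% were border shifts, 35.7% were KOD islands that became open like the chromatin around them, and 10.8% were new open islands inside a KOD. Switches between LAD and open could hardly be sorted this way, since 94.2% of the LAD to open runs and 94.0% of the open to LAD runs touched a bin in no list.

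The lists rarely place LAD and open side by side. A bin in no list bordered 83.0% of LAD ends in mES cells and 82.4% in forebrain. LAD touched open directly at 120 borders in mES cells and 269 in forebrain. KODs bordered open chromatin at 80.9% of their ends in mES cells and 78.2% in forebrain.

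With a cut at 50% of their length, long domains were kept more often than short ones. A domain was counted as kept where 50% or more of it carried the same state in the other source. Of the mES LADs, 90.7% of the 581 that were 500 kb or longer were kept in forebrain, against 62.7% of the 750 under 100 kb. For mES KODs the values were 69.3% of 189 and 35.8% of 1459, and for mES open domains 79.6% of 471 and 55.4% of 1250. Read from forebrain back to mES cells, 96.9% of 510 long LADs had been LAD, while only 41.4% of 908 LADs under 100 kb had. With a cut at 90%, the order by length held for the LADs of both sources and for mES KODs only. For mES open domains it turned round, with 39.1% of the long and 48.2% of the short kept. It also turned round for forebrain open domains (34.9% and 45.3%) and forebrain KODs (29.3% and 36.7%).

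Chromosomes differed in how much of their listed length switched, from 11.04% on chromosome 3 to 32.3% on chromosome 11, with a median of 18.8%. Chromosome 7 had 30.6% and chromosome 19 had 25.5%. On chromosome 11 the switch ran mostly one way, with 23.19 Mb going from open to KOD but only 5.7 Mb in the opposite direction, and KODs covered 39.0% of it in forebrain. Chromosome 10 showed the reverse, with 1.48 Mb newly KOD and 10.2 Mb newly open. Open to KOD exceeded KOD to open on 7 of 19 chromosomes, and these included 4 of the 5 with the most genes per Mb (7, 11, 19 and 2, but not 17).

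The exchange of LAD for open was concentrated on chromosome 7. This chromosome held 14.34 of the 28.45 Mb that went from LAD to open, 11.46% of its listed length against a median chromosome at 0.510%. Without chromosome 7, 14.11 Mb of this exchange were left. LAD to KOD took its largest share on chromosome 18, 7.21% of listed length, where 1 run over the gene Dcc holds 1140 kb of 5.53 Mb. KOD to LAD took its largest share on chromosome 15, 4.58%.

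**Figure D2:**
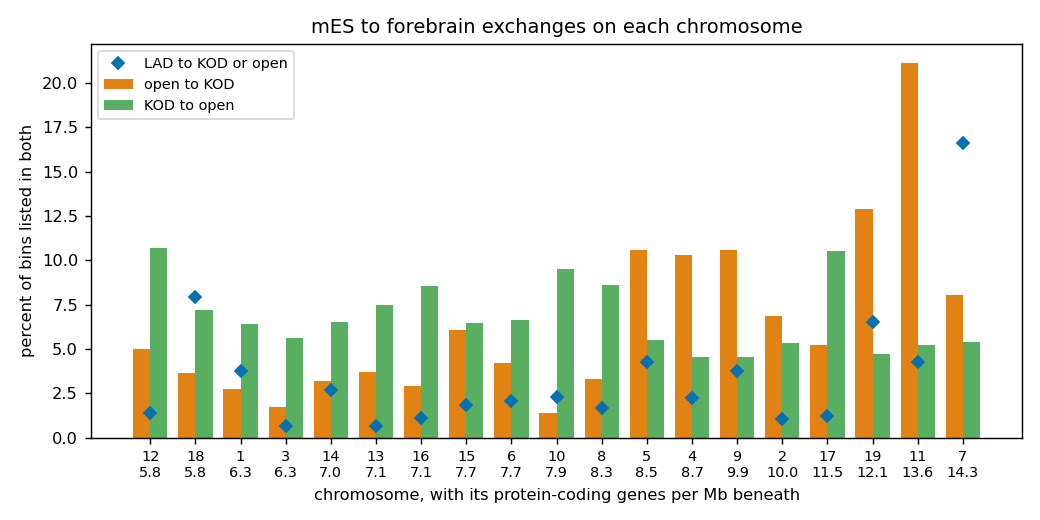
Percent of bins listed in both sources (vertical axis) that went from open to KOD, from KOD to open (bars) or out of LADs (diamonds) on each chromosome, ordered by protein-coding genes per Mb. Chromosome 11 stands out for open to KOD and chromosome 7 for LAD exits, and most chromosomes on the left lost more KOD than they gained.

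Each of 20665 protein-coding genes was given the state that covered the largest part of its body, and 18330 were listed in both sources. Of these, 4149 (22.6%) differed in state, and this share is the background for every list below. The gene counts were less balanced than the bases. From open to KOD went 2406 genes (13.1%), while 1119 (6.1%) made the opposite change. From LAD to open went 293 (1.6%), from open to LAD 168 (0.917%), from KOD to LAD 86 (0.469%) and from LAD to KOD 77 (0.42%). Counted per mES state, 9.45% of LAD genes became open and 2.48% KOD, 42.9% of KOD genes became open and 3.3% LAD, and 19.1% of open genes became KOD and 1.33% LAD.

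Genes of naive pluripotency were mostly open in both sources. Of 27 members listed in both, 19 were open in both, among them Pou5f1 and Nanog, the core regulators of the pluripotent state, and Klf2, Tfcp2l1 and Prdm14. Against the background of 22.6%, 7 members changed. Zfp42, known as the stem cell marker Rex1, and the neighbours Dppa2 and Dppa4, chromatin factors of early embryos, were open over 100% of the body in mES cells and LAD over 100% in forebrain. These were 3 of 27 members where 0.917% of all genes and 1.33% of open genes made that change. The 3 fall in 2 regions.

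Zfp42 (chr8:43295067-43307009) lay in an open stretch of mES cells, with LADs on both sides beyond short gaps in no list, and in forebrain that stretch was LAD throughout. Dppa4 and Dppa2 (chr16:48283735-48319513) lay in another such stretch. In heart, Dppa2 and Dppa4 were also LAD and Zfp42 was in no list. Klf4, a factor of naive pluripotency, was KOD over its whole body in mES cells and open in forebrain. Tbx3, Fgf4 and Lin28a, the RNA-binding protein that blocks maturation of let-7, were open in mES cells and KOD in forebrain. Esrrb, a nuclear receptor of naive cells, was KOD in both.

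Of the formative and primed markers, 2 of 10 changed, both from open to KOD, namely Otx2, a homeobox regulator of the anterior brain, and Car14. Zic2, Pou3f1 and Dnmt3b were open in both.

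The state of the markers of either source did not follow the source in a simple way. Of the forebrain markers, Pax6 and Tbr1 were in no list in mES cells and open in forebrain, and Emx1 was KOD in mES cells and open in forebrain. Emx2, Lhx2 and Dlx2 were open in mES cells and KOD in forebrain. Sox2, used by both stem cells and neural progenitors, was open in both.

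Forebrain transcription factors held 9 changed genes of 29 listed in both, 31.03% against 22.6% for all genes. Nfia, which acts in late progenitors and glial fate, was 81.5% LAD in mES cells over its 540811 bases, and 81.2% open in forebrain. Lmx1a, a roof plate and hem regulator, was LAD over 49.1% and then open over 100%, but at its start of transcription it was open in both. Emx1, of the dorsal telencephalon, went from KOD to open. Emx2, Lhx2, Neurod2, Neurog1, Vax1 and Barhl2 went from open to KOD, 6 of 29 where 13.1% of all genes did. Of the 40 matched factors 25 were open in mES cells, and 19.1% of open genes at large became KOD. Another 18 were open in both, including Otx1, Six3, Fezf2, Eomes, Neurog2 and Bcl11b.

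Of the 40 matched forebrain factors, 9 were in no list in mES cells, as were 1456 of all 20665 genes. In forebrain 8 of these 9 were open, among them Pax6, Nr2f1, Tbr1 and Gli3, against 400 of the 1456. The 400 are 1.94% of all genes, a share that depends also on how many genes were in no list. These genes have no state in mES cells, so none of them counts as a switch.

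Of the ventral forebrain and GABAergic genes, 4 of 26 changed. Foxp2, a forkhead factor of striatal and deep cortical neurons, lay in LADs over 96.3% of its length in mES cells. In forebrain its largest state was open, over 44.8%. The homeobox genes Dlx1, Dlx2 and Gsx2, which act in the ganglionic eminences, were open in mES cells and KOD in forebrain. Dlx5, Dlx6, Nkx2-1 and Lhx6 were open in both. Of the neural progenitor genes, 4 of 19 changed: Dll1, a Notch ligand, and Slc1a3, the glial glutamate transporter, from KOD to open, and Sox9 and Msi1 from open to KOD.

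Of the patterning signals, 6 of 28 changed and none left or entered a LAD. The ligands Wnt3a, Wnt7b and Wnt8b and Dkk3 went from open to KOD. Wnt7a and Sfrp1, a secreted Wnt antagonist, went from KOD to open. The ligands Shh, Fgf8 and Bmp4 were open in both.

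Map2, the microtubule protein of dendrites, went from LAD to open over its whole body. It spans chr1:66175202-66442583 and was LAD over 100% in mES cells and open over 100% in forebrain. In heart its largest state was LAD, over 55.1%. Of the 26 genes for the neuronal cytoskeleton and RNA-binding proteins, 3 others changed. Tubb3, the neuronal beta tubulin, and Mapt, which encodes tau, went from open to KOD, and Map1b from KOD to open over 51.0% of its body. The 17 open in both included the neurofilament genes Nefl, Nefm and Nefh.

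Axon guidance genes changed in 5 of 31 cases. Dcc, the netrin receptor, spans chr18:71253613-72351228 and lay wholly in LADs in mES cells and wholly in a KOD in forebrain, an island of 1140 kb with LAD on both sides. In heart it was LAD over 83.9%. Epha7, an ephrin receptor, was LAD over 63.1% in mES cells and open over 95.1% in forebrain. Unc5a, another netrin receptor, and Slit3, a repellent ligand, went from KOD to open, and Neo1, a relative of Dcc, from open to KOD. Among the 11 LAD in both were the Slit receptors Robo1 and Robo2 and the ligands Sema3a and Sema3c.

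Most genes for neuronal adhesion and for synapses were in LADs in both sources. For adhesion this was 28 of 40 listed genes, including Nlgn1, Cntnap2 and the cadherins Cdh8 and Cdh10. For synapses and ion channels it was 31 of 53, including the receptor genes Gria2 and Grm5 and the sodium channels Scn1a and Scn2a. Opcml, a cell adhesion protein of the IgLON family, went from LAD over 77.1% of its body to KOD over 86.8%. Tenm2, a teneurin, and Pcdh17, a protocadherin, had their largest state change from LAD to open, but in forebrain open covered only 49.8% and 53.2% of them.

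Among the channel and receptor genes, Cacna1e went from LAD over 56.5% to KOD over 48.4% of its body. Grin2b, the NMDA receptor subunit of the embryonic brain, went the other way, from KOD over 97.8% to LAD over 63.8%, and was LAD over 100% in heart. Cacna1b, Cacna1c and Bsn had KOD as their largest state in mES cells and open in forebrain, and Stx1a, Vamp2 and Dlg4, of the vesicle fusion machinery and the postsynaptic density, went from open to KOD. For Tenm2, Pcdh17, Opcml, Cacna1e, Cacna1b, Bsn, Epha7, Map1b and Slc1a3, the states at the start of transcription did not show the change seen over the body.

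Over the 8 neural lists together, the share of genes that left LADs was near that of all genes. Of 89 members that were LAD in mES cells and listed in forebrain, 10 (11.2%) had left, against 370 of 3102 genes (11.9%). The 10 were Map2, Nfia, Lmx1a, Foxp2, Epha7, Pcdh17 and Tenm2, open in forebrain, and Dcc, Opcml and Cacna1e, KOD in forebrain. Not all of these exits were particular to forebrain. In heart, Nfia and Epha7 were open as well, over 83.4% and 88.7% of the body. The largest state in heart was LAD for Map2 (55.1% of the body), Tenm2 (48.8%), Dcc (83.9%), Opcml (42.2%) and Cacna1e (88.9%). These LAD shares were lower than in mES cells for all but Cacna1e. Lmx1a, Foxp2 and Pcdh17 were mostly in no list there. In the other 10 symbol lists, 16 members were LAD in mES cells and none of them had left. Of the neural members Grin2b entered a LAD, and of the other lists Zfp42, Dppa2, Dppa4 and Apob did.

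**Figure D3:**
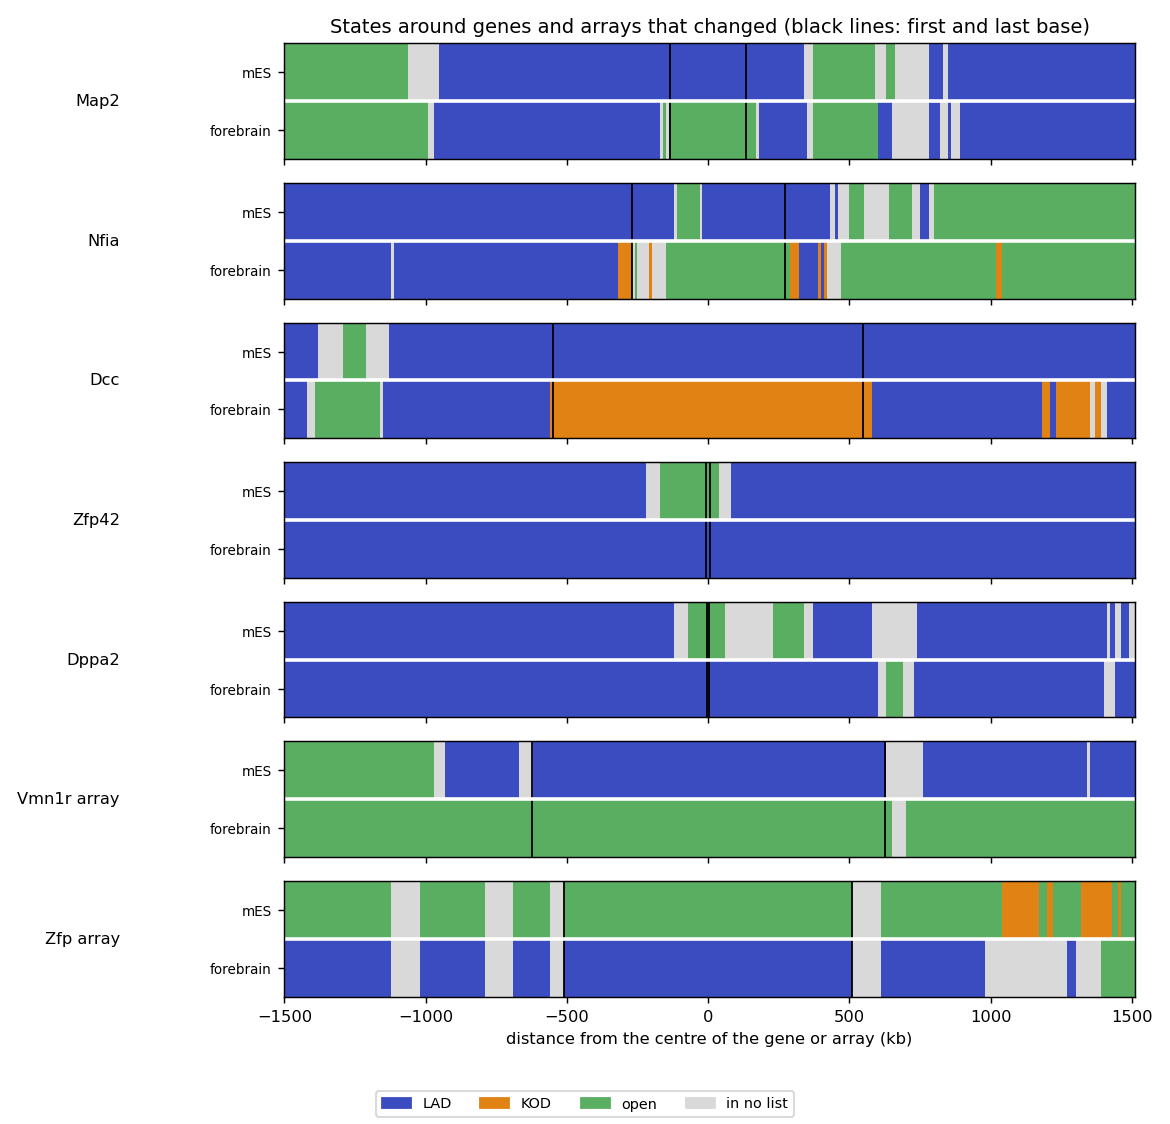
States (colours) in mES cells and forebrain over 1500 kb to either side of 5 genes and of 2 gene arrays, by distance in kb from the centre, with black lines at the first and last base. Map2 and Dcc leave LADs over just their own bodies, Zfp42 and Dppa2 lie in open stretches that become LAD, and the Vmn1r and Zfp arrays switch over their whole length.

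Some of the longest genes that left LADs are also known from the nervous system. They were picked for their length after the values were seen. Dab1, the adaptor of reelin signalling, went from LAD over 52.5% of its 1125 kb to KOD over 90.2%. Auts2, a neurodevelopmental gene, went from LAD over 46.1% to KOD over 99.1% of 1106 kb. Fat3, an atypical cadherin, went from LAD over 91.6% to open over 84.4% of 592 kb. In heart the largest state of Dab1 was LAD and that of Auts2 was KOD, while Fat3 was mostly in no list. Among genes of 500 kb or more that were LAD in mES cells, 7.19% became KOD and 5.76% open (139 genes). Among those under 10 kb, 0.682% became KOD and 10.1% open (1759 genes). Of all 293 genes that went from LAD to open, 81 are Vmn1r genes, and 91 are left without chromosome 7. Whether the contrast by length holds without these arrays was not tested.

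Markers of other cells that a forebrain lobe can hold also changed. Of 18 endothelial genes, 6 changed, 33.3% against 22.6% for all genes. Tie1, a receptor of vessel cells, the ETS factors Erg and Fli1, Sox7 and Egfl7 went from KOD to open, and Pecam1 from open to KOD. The KOD to open genes were 5 of 18, against 6.1% of all genes. But 7 of the 18 were KOD in mES cells, and 42.9% of all KOD genes became open. Kdr and Flt1, the VEGF receptors, were KOD in both. Of 19 blood and microglia genes, 5 changed, in both directions: Csf1r and Trem2 from KOD to open, and Klf1, Cx3cr1 and Aif1 from open to KOD. Of 19 neural crest, meninges and mesenchyme genes, 6 changed. Alx4, Pdgfrb, Postn and Runx2 went from KOD to open, and Foxd3 and Col1a1 from open to KOD.

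Of these KOD to open genes, Tie1, Fli1, Egfl7, Csf1r, Trem2, Alx4, Pdgfrb and Postn were open in heart as well, while Erg, Sox7 and Runx2 were KOD there. The part that these cells have in the forebrain map was not tested. At their start of transcription Erg and Runx2 were open in both sources. KOD to open changes were also found among markers of tissues that a lobe does not hold. Of 22 heart and skeletal muscle genes, 5 changed. Myh7 and Mybpc3, of the contractile fibres, went from KOD to open, and Gata4, Myl2 and Pax3 from open to KOD. Nkx2-5, Tbx5 and Myod1 were KOD in both. Of 16 endoderm and liver genes, 4 changed, among them Gata5 and Serpina1a from KOD to open. Apob, which encodes the main protein of low-density lipoprotein, went from KOD over 100% to LAD over 100%, the state it had in heart. Alb and Afp were LAD in both.

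Most genes active in all cells were open in both sources. All 29 listed housekeeping genes were open in mES cells, and in forebrain 21 were open and 8 (27.6%) were KOD, among them Actb, which encodes beta actin, and Polr2a, the largest subunit of RNA polymerase II. The machinery of H3K9 methylation and the lamina had the same count, with 29 of 29 open in mES cells and 8 KOD in forebrain. These were the methyltransferase Setdb1 and Zfp644, which binds G9a, the HP1 genes Cbx1, Cbx3 and Cbx5, the demethylase Kdm1a, and Banf1 and Prr14, which tether chromatin to the lamina. Ehmt1 and Ehmt2, which encode GLP and G9a, and Lmnb1, which encodes Lamin B1, were open in both. Both counts stand beside the 19.1% of open genes at large that became KOD, and nothing particular to either list is read from them. Of 20 germline genes, 5 went from open to KOD, including the meiotic genes Dmc1 and Hormad1, where 13.1% of all genes did.

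**Figure D4:**
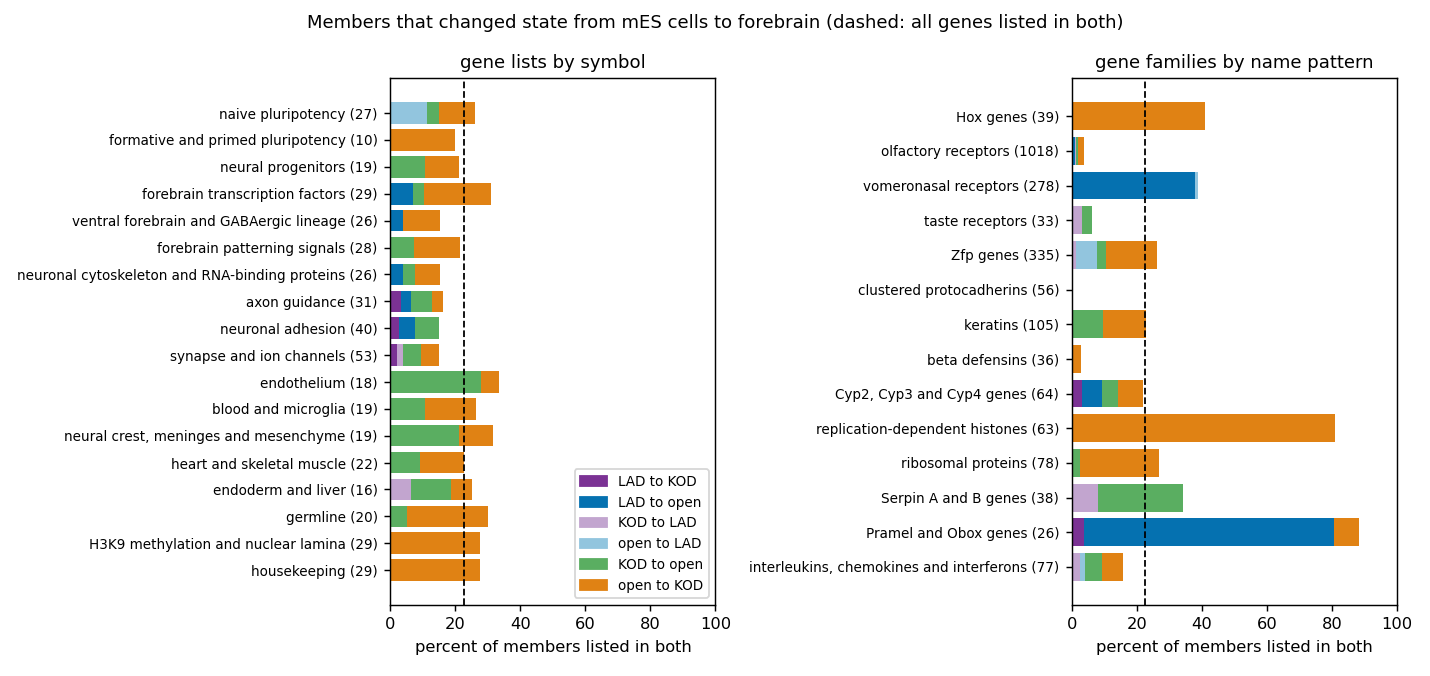
Percent of the members listed in both sources (horizontal axis) that changed state, by kind of exchange (colours), for 18 gene lists by symbol and 14 families by name pattern, with the number of listed members in parentheses. The dashed line is the 22.6% of all genes, and the Pramel and Obox, histone, Hox and vomeronasal families reach farthest beyond it.

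The 3 longest runs that went from LAD to open held arrays of chemosensory and oocyte genes. The vomeronasal receptors detect pheromones. They went from LAD to open in 104 of 278 listed cases, against 1.6% of all genes and 9.45% of LAD genes. A further 164 of the 278 were LAD in both sources, 33 of them on chromosome 7. All 104 lie on chromosome 7 between Vmn2r31 and Vmn1r184 (chr7:7383985-26267775), in 19 regions. The longest of these, chr7:20350001-21600000, holds 34 genes of which 29 are Vmn1r. The second, chr7:7840001-8550000, holds 6 Vmn2r genes, and the third, chr7:15000001-15680000, holds Obox1, Obox2 and Obox3, homeobox genes of the oocyte. In heart the first of these runs was open over 100% and the second over 71.8%, while the third was in no list over 52.9%. Pramel and Obox genes are active in germ cells and the earliest embryo. Of 26 listed in both sources, 20 went from LAD to open, on chromosomes 4, 5 and 7, beside the same 1.6% and 9.45%. Of the 51 matched genes 39 were LAD in mES cells, and 16 of these were in no list in forebrain.

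The promoter windows of these arrays are close copies of each other, as in the Vmn1r244 sequence above. Among Vmn1r genes that went from LAD to open, 68 of 78 windows shared 50% or more of their 31-base words with the window of another gene, against 4 of 76 for Vmn1r genes that were LAD in both. For Vmn2r genes the counts were 16 of 21 and 13 of 71. Of all LAD to open genes, 63.3% had such a window, against 4.33% of all genes. The part that short reads from near-identical copies have in these calls was not tested. Without genes of such windows, or of no window, 91 genes went from LAD to open.

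Some zinc finger genes changed in the opposite direction. Of 335 listed Zfp genes, many of which encode repressors of transposable elements, 222 were open in both sources. From open to LAD went 22, against 0.917% of all genes and 1.33% of open genes. Of the 22, 10 lie on chromosome 2 and 10 on chromosome 13. The longest open to LAD region, chr2:176600001-177620000, holds 7 genes including Zfp973 and Zfp970. The next in length, chr2:174930001-175500000 and chr2:175600001-175990000, hold Zfp968, Zfp965 and Zfp966 among others. In heart the last was open over 100%. Here too copies are frequent, with 8 of 22 windows of the open to LAD Zfp genes mostly repeated, against 8 of 186 for those open in both. A further 53 of the 335 went from open to KOD, where 13.1% of all genes did. Most of the family was open in mES cells, 311 of 386 matched genes, and 19.1% of all open genes became KOD. Nothing particular to the family is read from this count.

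The replication-dependent histone genes, which are transcribed in S phase, changed most as a family in the exchange of open for KOD. Of 63 listed, 51 were open in mES cells and KOD in forebrain, against 13.1% of all genes and 19.1% of open genes. They lie in 4 regions only, with 41 genes on chromosome 13 and 10 on chromosome 3, so they are few independent events. H2bc13, whose promoter is shown above, is the first of those on chromosome 13.

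The Hox genes, which pattern the trunk and hindbrain and are silent in forebrain, were all open in mES cells. In forebrain 16 of 39 were KOD, in 5 regions, against 19.1% of all genes that were open in mES cells. All 10 Hoxb genes listed were among the 16, on chr11:96194316-96368254. Those that changed in the other clusters included Hoxa13, Hoxc12, Hoxc13 and Hoxd1, and 23 Hox genes were open in both.

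Among the other families the share that changed varied widely. None of 56 clustered protocadherin genes did, and 37 of 1018 olfactory receptor genes (3.63%) did, against 22.6% of all genes. Ribosomal protein genes, matched by name and so including the kinase-like Rps6kl1, changed in 21 of 78 cases, 19 of them from open to KOD. Most of the matched genes, 75 of 80, were open in mES cells, and 19.1% of all open genes became KOD. Serpin A and B genes, protease inhibitors, changed in 13 of 38 cases (34.2%). All 13 lie on chromosome 12 in 5 regions, with 10 from KOD to open and 3, Serpina3a to Serpina3c, from KOD to LAD. The 18 that were LAD in both lie on chromosomes 1 and 13. Keratin genes changed in 24 of 105 cases, near the background.

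The other long switched regions held few genes. The longest run of all, LAD to KOD on chr10:91320001-92670000 (1350 kb), holds no protein-coding gene wholly inside. The longest KOD to open run, chr8:14100001-14860000 (760 kb), holds none either, and the third, chr3:28030001-28690000, holds Tnik, a kinase of Wnt signalling. The longest KOD to LAD run, chr15:3250001-3820000 (570 kb), holds Selenop, Ccdc152 and Ghr, the growth hormone receptor. By contrast the longest open to KOD runs were crowded. The run at chr4:133080001-133690000 holds 19 genes, that at chr9:65550001-66160000 holds 12, and that at chr11:80270001-80860000 holds 7, including Cdk5r1, a neuronal activator of the kinase Cdk5.

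Sequence that went from open to KOD resembled open chromatin in gene content. It held 17.95 genes per Mb, close to the 18.5 of chromatin open in both sources, while sequence that went from KOD to open held 7.99, close to the 6.18 of KOD in both. LAD to open held 10.1 genes per Mb and LAD to KOD 1.88, against 2.92 for LAD in both. Genes of the LAD to KOD class were long, with a median of 50.9 kb, and those of the LAD to open class short, at 5.80 kb. The LAD to open values take in the arrays of chromosome 7, and without that chromosome 91 of the 293 genes are left. The medians were 28.8 kb for KOD to open and 14.6 kb for open to KOD.

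KOD cover differed between the sources by gene density. In windows of 1 Mb with 16 to 30 gene midpoints, KODs covered 21.2% in mES cells and 29.6% in forebrain, and in windows with over 30, 14.5% and 28.2%. In windows with 6 to 15 genes their cover went the other way, from 24.0% to 19.2%. Of bases that were open in mES cells, 29.8% had become KOD in the windows with over 30 genes and 11.54% in those with 1 to 5. Windows with 0 genes did not follow this order. In them 25.9% of the open bases had become KOD, which is 0.76 Mb, and KOD cover was 3.75% in mES cells and 6.24% in forebrain.

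The share of promoters rich in CpG also differed between the classes. Among genes open in both sources, 66.2% had a promoter window with an observed to expected CpG ratio of 0.6 or more, as in the Map2 window, and among open to KOD genes 61.3% did. The share was 41.6% for KOD to open, 28.1% for LAD to KOD, 16.2% for open to LAD, 10.7% for LAD in both and 6.85% for LAD to open, against 49.7% of all windows. Map2 is thus unlike most of the genes that made its change, and Vmn1r244 like most of them. Windows were available for 81.7% of genes on 18 chromosomes, and for KOD in both sources the share of genes with a window was under 80%, so no value is given for it.

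**Figure D5:**
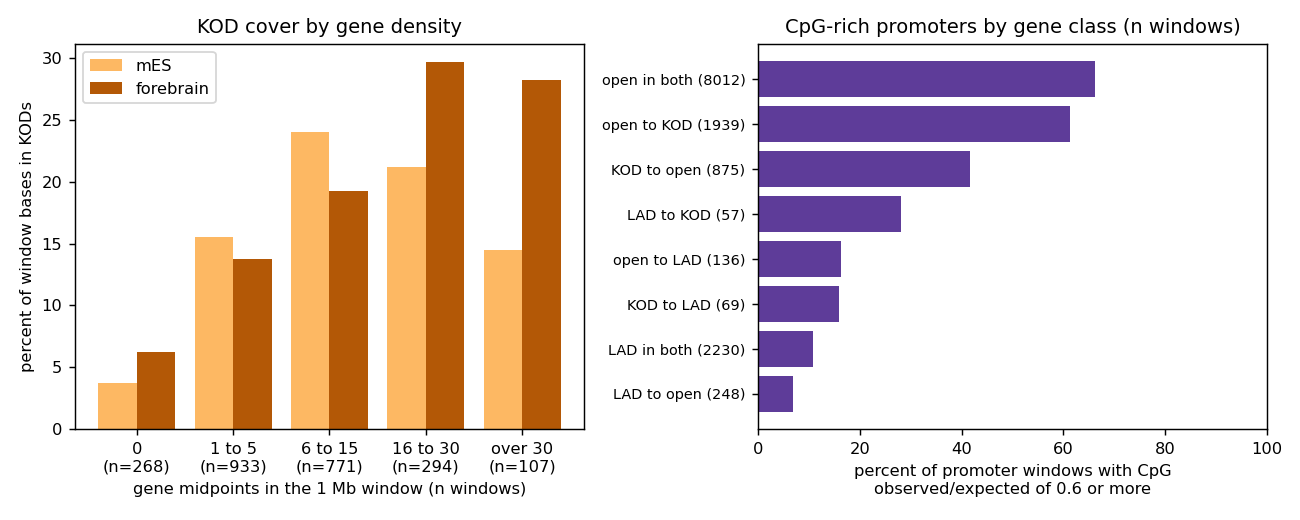
Left, percent of bases in KODs (vertical axis) in mES cells and forebrain for 1 Mb windows grouped by the number of gene midpoints in them. Right, percent of promoter windows with a CpG observed to expected ratio of 0.6 or more (horizontal axis) for genes of each class, from 6.85% for LAD to open to 66.2% for open in both.

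Of 919 microRNA hairpins, 839 were listed in both sources and 186 (22.2%) changed state, with 122 open to KOD (14.5%) and 46 KOD to open (5.48%). Few touched LADs, with 5 going from open to LAD (0.596%), Mir6380, Mir7234, Mir378d, Mir5124b and Mir568, and 3 from KOD to LAD (0.358%), Mir7683, Mir467h and Mir5709. Mir137, which encodes a microRNA of neuronal differentiation, and the pair Mir181a-1 and Mir181b-1 on chromosome 1 were among 4 that went from LAD to open (0.477%), with Gm51273 the fourth. The second copies, Mir181a-2 and Mir181b-2 on chromosome 2, give the same mature sequences and were open in both. Mir99a and Mirlet7c-1, neighbours on chromosome 16, and Mir135a-2 and Mir1251, in the 1350 kb run on chromosome 10, were among 6 that went from LAD to KOD (0.715%). The other copy of miR-135a, Mir135a-1, was open in both.

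The let-7 hairpins, whose microRNAs build up as cells differentiate, were split by locus. Mirlet7a-1, Mirlet7d and Mirlet7f-1 lie together on chromosome 13 and went from open to KOD. Mirlet7g and Mirlet7i were open in both, and Mirlet7b and Mirlet7c-2 KOD in both. Of the copies of miR-9, a microRNA of neural progenitors, Mir9-1 went from open to KOD, Mir9-3 was open in both, and Mir9-2 was in no list in mES cells and open in forebrain. The Mir290 and Mir302 clusters, which are active in pluripotent cells, were open in both, as were Pou5f1 and Nanog.

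Bins in no list of 1 source differed in the state they had in the other. In mES cells alone 111.03 Mb had no state, and of these 60.3% (66.96 Mb) were LAD in forebrain. In forebrain alone 123.94 Mb had no state, of which 33.5% (41.56 Mb) were LAD in mES cells and 59.8 Mb were open. In both 60.94 Mb had none. With no list counted as a state of its own, 26.6% of the span differed between the sources.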

How the data were processed

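H3K9me2 and Lamin B1 CUT&RUN libraries, with IgG as control, were made from mES cells and E11.5 forebrain. The submitters' processing notes name mm10 and the tools deepTools, Picard, Bowtie2 2.5.0, cutadapt 4.2 and Trim Galore. The calling of domains, its thresholds and the use of IgG are not given in the sources used here. The lists deposited by the authors are domain coordinates that start and stop on multiples of 10 kb and carry no score. The replicates of a source share 1 list for each state, so depth is unknown. Long domains can also come from deeper libraries or looser thresholds. The signal tracks that the labels name were not used here.

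Lists were painted in bins with Python 3.11.15, numpy 2.4.6 and pandas 2.3.3, and drawn with matplotlib 3.10.9. No bin stood in 2 lists of a source. The functions were tested on simulated maps. With 1 map per source nothing was tested and no p-value is given. Genes, promoters and microRNAs came from RefSeq's annotation of GRCm38.p6, and a gene with several starts was given the first in the table. Members and lists were chosen with earlier results of these data known. Named genes are members of the symbol lists listed in both sources that differ, in list order with LAD changes first and at most 8 per list, and the 3 longest regions of each exchange with their genes. Nr0b1 and Bmp15 matched no gene of chromosomes 1 to 19. Some genes that the rule or lists hold are not reported here.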

Additional observations from a re-analysis of the deposited data

How the results depend on the processing

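No paired analysis was possible because each source has 1 pooled list, and for the same reason leaving out a replicate and a stricter threshold could not be run. No result reversed except 1 named gene. With a gene scored 1 for the same change and -1 for the reverse, Bsn scored -1 at the start of transcription. Gaps of 20 kb bridged, the gene midpoint and any shared bin moved no summary count by over 1.5 times.

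With 20 kb trimmed from the ends of domains, 439.63 Mb of mES cells and 466.14 Mb of forebrain were in no list and 13.5% of listed bins changed. LAD to open fell to 16.59 Mb, KOD to LAD to 14.86, open to LAD to 11.58, KOD to open to 77.94 and open to KOD to 76.16. Regions numbered 220 (LAD to KOD), 142 (LAD to open), 190 (KOD to LAD), 190 (open to LAD), 933 (KOD to open) and 905 (open to KOD), the same numbers as regions of 50 kb or more only, since trimming removes shorter ones. Changed genes were 2385, with 39 LAD to KOD, 40 KOD to LAD, 71 open to LAD, 587 KOD to open and 1437 open to KOD, and 68 members of symbol lists (main 103) and 264 of families (main 410). Trimmed domains never touch, so flanks had no value.

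Without domains under 100 kb, 296.62 and 332.6 Mb were in no list, 15.9% of bins changed, KOD to LAD was 17.49 Mb and open to LAD 18.61. Regions numbered 143 (LAD to KOD), 202 (LAD to open), 124 (KOD to LAD), 287 (open to LAD), 990 (KOD to open) and 959 (open to KOD). KOD to open had 184 border shifts, 14 new and 69 filled islands, and open to KOD 223, 55 and 18. Genes were 44 LAD to KOD and 47 KOD to LAD.

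With 90% of the body in 1 state, genes were 35 LAD to KOD, 55 KOD to LAD, 108 open to LAD and 677 KOD to open, and 65 members of symbol lists changed. With 90% shared, 1424 mES open domains were kept (main 2170). With bins in no list as a state, 26.6% changed. Leaving out 1 chromosome, 18.5% (without 11) to 19.8% (without 3) changed, and without chromosome 7 LAD to open was 14.11 Mb and 91 genes, and 269 family members changed.

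Chosen after the data were seen, leaving out chromosomes 11 and 19 gave 18.3% changed and leaving out chromosome 7 gave 18.5% and 14.11 Mb of LAD to open. Without the vomeronasal, Pramel, Obox and Zfp families 168 genes went from LAD to open. Without genes of repeated or no promoter window 91 did and 104 went from open to LAD. That turned round the order of the main counts, 293 from LAD to open and 168 from open to LAD. The cause of these moves was not tested.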

Other observations

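The length that KOD and open exchanged differed with position along the chromosome, which the comparisons above do not use. Each chromosome was cut into 10 equal parts, numbered from its centromere end. Open to KOD took 2.5 Mb in part 1 and 28.89 Mb in part 9. KOD to open took 21.79 Mb in part 2 and 8.07 Mb in part 9. LAD to KOD took 1.01 Mb in part 1 and 11.35 Mb in part 9, while KOD to LAD took 6.67 Mb in part 1 and 1.52 Mb in part 9. Part 10, at the far end, turned back, with 23.28 Mb of open to KOD, 13.41 Mb of KOD to open, 3.19 Mb of LAD to KOD and 5.48 Mb of KOD to LAD. LAD cover went from 48.0% to 53.5% in part 1 and from 28.0% to 31.04% in part 10, and from 42.9% to 39.3% in part 7. The Mb values are pooled over chromosomes and are not shares of the bases that each mES state held in a part. Chromosome 11 alone held 23.19 of the 134.35 Mb of open to KOD. Whether the order along the chromosome holds for such shares or without chromosome 11 was not tested.

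Cyp2b and Cyp2a genes, which encode liver and nasal oxidases, lie in the same part of chromosome 7 as the vomeronasal arrays. Of these Cyp genes 4, from Cyp2b13 to Cyp2a22 (chr7:26061388-26939413), went from LAD to open, where 1.6% of all genes and 9.45% of LAD genes did. Others in or beside this stretch did not. Cyp2b23 was LAD in both, Cyp2b10 and Cyp2a5 were open in both, and Cyp2b19 went from open to KOD. On chromosome 13, 3 vomeronasal genes, Vmn1r220 to Vmn1r222, went from open to LAD, opposite to the arrays of chromosome 7.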
